A study of Mus musculus with 16 samples.

Results

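Ddit4, the sestrins and other genes that set or carry the activity of mTORC1, the kinase complex that ties cell growth to nutrients and stress, were followed through RNA sequencing of mouse embryo heads. The genes are Ddit4, Ddit4l, Sesn1, Sesn2, Sesn3, Tsc1, Tsc2, Rptor and Eif4ebp1, taken by symbol as 9 of the 24421 genes listed in each count table, and all 9 passed the filter on low counts. Tissue came from embryos at embryonic day 8.5, between the first branchial arch and a level slightly above the otic vesicle. The mice had been kept on their folic acid diet for 3 generations. The 4 groups of 4 libraries were embryos homozygous for an Ift88-null allele on the enriched diet (10 ppm folic acid), WT embryos on the enriched diet, Ift88-null embryos on the moderate diet (2 ppm) and WT embryos on the moderate diet. Ift88 encodes a subunit of the machinery that builds cilia. The labels name no tissue-specific driver for the null allele and give neither litters nor pooling of embryos, so a p-value here reflects library-to-library spread, part of which may be technical.

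As background, mTORC1 promotes protein synthesis when amino acids, energy, oxygen and growth factors suffice. Ddit4 (also called REDD1) is a short-lived inhibitor whose gene is switched on by hypoxia-inducible factors, by the stress factor ATF4, by p53 and by glucocorticoids, and it acts through the Tsc1 and Tsc2 complex, which turns off Rheb, the activator of mTORC1. Ddit4l (REDD2) is its paralogue. Sestrins restrain mTORC1 through the GATOR complexes at the lysosome: Sesn2 is a leucine sensor induced by ATF4, Sesn1 is a p53 target and Sesn3 a FOXO target. Rptor encodes Raptor, the subunit that presents substrates to the kinase, and Eif4ebp1 encodes a substrate, a repressor of cap-dependent translation that is released from the cap-binding protein Eif4e when phosphorylated. In mouse pancreatic islets Eif4ebp1 is itself an ATF4 target.

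Values below are raw counts turned into CPM, each library being scaled to the same round total. They measure RNA only and say nothing of protein or phosphorylation. Library totals ran from 19249433 to 44267434 counts. Ift88 itself was 2.01 to 8.61 CPM in the 8 mutants, against 9.30 to 20.9 CPM in the 8 WT libraries, where the library labelled moderate diet WT 2 was the 9.30 and the other 7 held at least 17.9 CPM. Moderate diet mutant 3 stood apart from its group on the first principal component (-3.66, against 14.7 to 21.2 in the other 3 moderate diet mutants and -19.3 to -12.6 in WT). Enriched diet mutant 3 held 189 CPM of Prl8a2, a decidual marker at 3.46 CPM or less in every other library. In 3 libraries, moderate diet mutants 1 and 2 and moderate diet WT 2, the sex on the label went against the sex-linked counts. Markers of neural plate and early brain summed to 663 to 820 CPM over all libraries and cardiac markers to no more than 5.03 CPM; erythroid markers ranged from 699 to 3535 CPM in enriched diet mutants, 1464 to 3723 in enriched diet WT, 1216 to 3288 in moderate diet mutants and 2392 to 6327 in moderate diet WT. In bulk tissue, fewer cells of a type and less RNA per cell cannot be told apart.

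Ddit4, Sesn2 and Eif4ebp1 were higher in Ift88-null heads on both diets, Ddit4 by 8.51-fold and 9.16-fold on the enriched and moderate diets, Sesn2 by 3.90-fold and 3.09-fold and Eif4ebp1 by 2.07-fold and 2.06-fold. One, Ddit4l, was lower on both, and Rptor was slightly lower on the enriched diet. Sesn1, Sesn3, Tsc1 and Tsc2 passed the test on neither diet. On the enriched diet 3 of 9 were called higher and 2 lower at an adjusted p under 0.05 (edgeR quasi-likelihood test, Benjamini-Hochberg), where 31.2% of the 14514 genes tested were called, 14.4% higher and 16.8% lower. On the moderate diet 3 of 9 were called higher and 1 lower, where 7.62% of genes were called, 4.79% higher and 2.83% lower. Neither diet comparison called any of the 9.

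**Figure D1:**
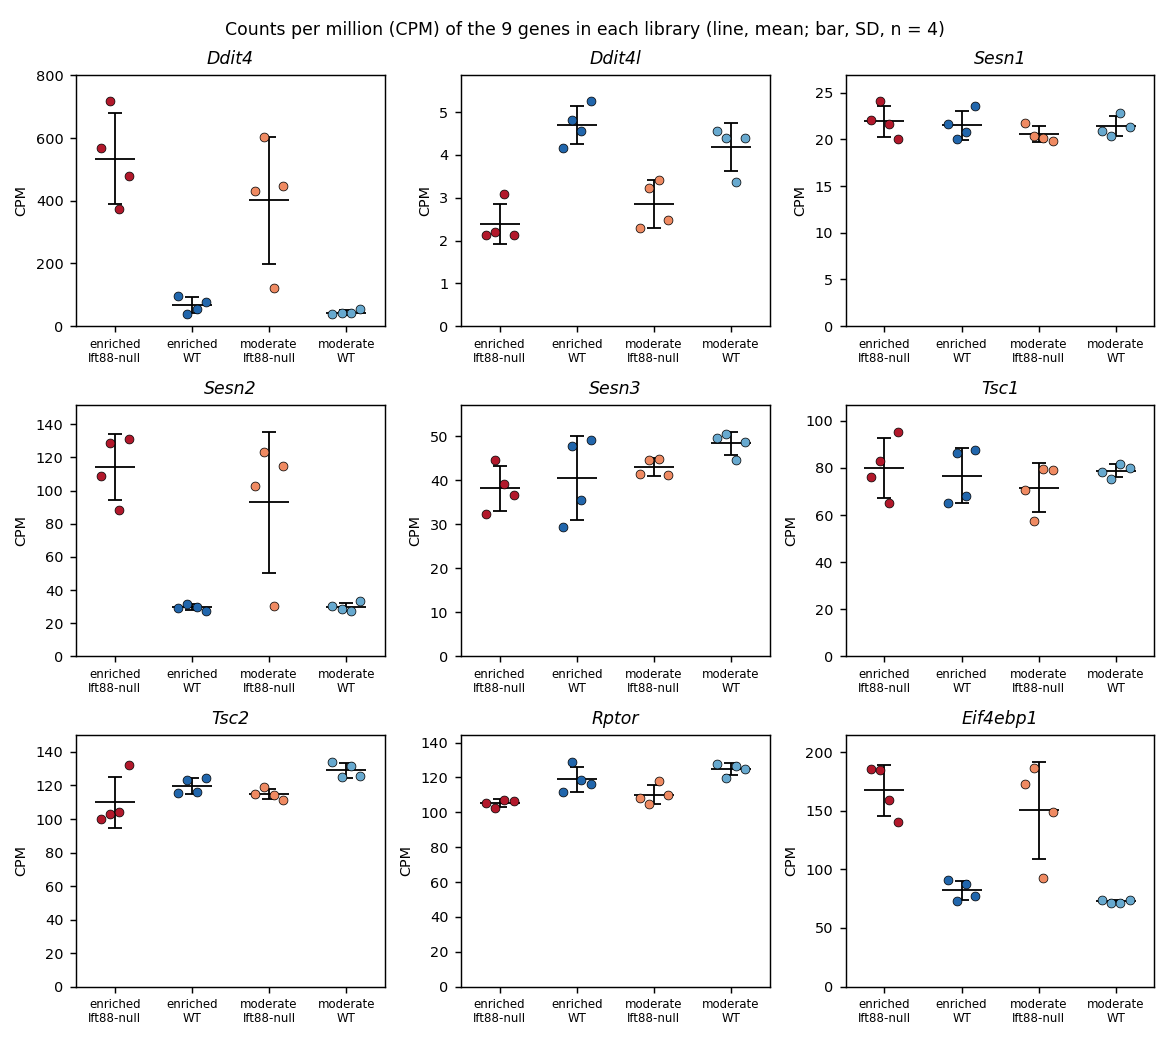
Level of each of the 9 genes in CPM (vertical axis, linear from 0) in the 4 groups (horizontal axis), with 1 point per library, a line at the mean and bars of 1 SD (n = 4). Ddit4, Sesn2 and Eif4ebp1 stand high in Ift88-null groups apart from 1 low moderate diet mutant, replicate 3, and Ddit4l lies lower in Ift88-null groups.

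The stress-induced inhibitor Ddit4 lies on chromosome 10 from 59949669 to 59951834, minus strand (mm10, GENCODE vM21). Enriched diet mutants 1 to 4 held 568, 716, 374 and 477 CPM (534 ± 145, SD, n = 4), against 95.6, 39.6, 55.3 and 78.5 CPM in enriched diet WT (67.2 ± 24.8). Moderate diet mutants held 432, 603, 121 and 448 CPM (401.0 ± 202), against 38.04, 40.9, 40.8 and 53.6 CPM in moderate diet WT (43.3 ± 6.97). Every one of the 8 mutants lay above all 8 WT libraries, with the lowest mutant, moderate diet mutant 3, at 121 CPM and the highest WT library at 95.6 CPM. The rise was 8.51-fold on the enriched diet (log2 fold change 3.09 ± 0.38 SE, 95% interval 2.29 to 3.89, adjusted p = 0.000103) and 9.16-fold on the moderate diet (3.20 ± 0.37, 2.40 to 3.99, adjusted p = 8.07e-05). By p-value Ddit4 ranked 56th of all genes tested on the enriched diet and 40th on the moderate diet. Spread differed between the groups, from a coefficient of variation of 16.1% in moderate diet WT to 36.8% in enriched diet WT and 50.4% in moderate diet mutants.

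Promoters of Ddit4 and Sesn2 are shown because both genes rose but did so differently in 1 library, described further on. The sequences are from RefSeq (GRCm38.p6), 150 bases from 250 to 101 bases before the annotated start, 5′ to 3′ on the gene's own strand. The search covered the 250 bases before the start on both strands for ACGTG and GCGTG, the 2 forms of the core that hypoxia-inducible factors bind, and for TGATGNAA, the core of the composite element that ATF4 and C/EBP factors bind. Capitals mark matches.
Ddit4, chr10:59951871-59952020, minus strand: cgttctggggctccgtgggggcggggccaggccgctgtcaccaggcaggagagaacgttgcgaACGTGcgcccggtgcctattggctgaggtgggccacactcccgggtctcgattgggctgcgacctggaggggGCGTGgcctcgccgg
Sesn2, chr4:132510557-132510706, minus strand: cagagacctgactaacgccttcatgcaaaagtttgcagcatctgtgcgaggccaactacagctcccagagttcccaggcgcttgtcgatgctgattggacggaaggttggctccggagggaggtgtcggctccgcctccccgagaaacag

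The Ddit4 window holds ACGTG starting 187 bases and GCGTG 115 bases before the start, both on the gene's strand. The Sesn2 window holds none of the motifs. Among 32851 promoter windows of the same length, 16.6% hold ACGTG, 28.2% GCGTG, 38.6% either and 3.45% TGATGNAA. Of the 9 genes, 8 have windows in the RefSeq table (9 windows, since Sesn1 has 2), Eif4ebp1 has none there, and no member's window holds TGATGNAA. Ddit4l holds 1 GCGTG at 228 bases on the opposite strand, Rptor an ACGTG and a GCGTG at 34 and 14 bases, 1 of the Sesn1 windows 2 GCGTG, Tsc1 and Tsc2 1 GCGTG each, and Sesn3 none. These are descriptions of letters in a window, not binding sites, and any link to the RNA levels was not tested.

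Ddit4l, the paralogue of Ddit4 on chromosome 3 (137621612 to 137628333, plus strand), moved the other way at a level near 3 CPM. Enriched diet mutants held 2.13, 2.21, 3.08 and 2.13 CPM (2.39 ± 0.461, SD, n = 4), against 4.17, 4.82, 4.56 and 5.25 CPM in enriched diet WT (4.70 ± 0.453). Moderate diet mutants held 2.29, 3.24, 3.41 and 2.48 CPM (2.85 ± 0.552), against 4.56, 4.41, 3.36 and 4.40 CPM in moderate diet WT (4.18 ± 0.556). On the enriched diet all 4 mutants lay below all 4 WT libraries, and on the moderate diet mutant 3 (3.41 CPM) lay just above WT 3 (3.36 CPM). Depth was modest, with 51 to 177 counts of the gene per library. The log2 fold change was -1.07 ± 0.16 on the enriched diet (SE, adjusted p = 0.000297), 0.476 of the WT level, and -0.55 ± 0.15 on the moderate diet (adjusted p = 0.0355), 0.684 of the WT level. That moderate diet call was lost in 12 of 25 other fits, among them those without moderate diet mutant 1, 2 or 4 or without any 1 of the 4 moderate diet WT libraries (adjusted p = 0.0576 to 0.127). It was also lost with sex read from counts (edgeR, adjusted p = 0.0606) and without the sex covariate (edgeR, adjusted p = 0.0535). The difference between the 2 genotype effects was -0.52 ± 0.22 on the log2 scale, the smallest interaction p of the 9 (edgeR, unadjusted p = 0.0281), and did not pass after adjustment (adjusted p = 0.501).

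Of the 3 sestrins only Sesn2 passed the test. Sesn2, on chromosome 4 from 132492032 to 132510501, minus strand, was 109, 129, 88.1 and 131 CPM in enriched diet mutants (114 ± 20.1, SD, n = 4), against 29.2, 31.8, 30.04 and 27.6 CPM in enriched diet WT (29.7 ± 1.74). It was 103, 124, 30.5 and 115 CPM in moderate diet mutants (92.97 ± 42.5), against 30.4, 28.4, 27.5 and 33.2 CPM in moderate diet WT (29.9 ± 2.52). Apart from moderate diet mutant 3, the mutants lay at 88.1 CPM or more, and all 8 WT libraries between 27.5 and 33.2 CPM. That library, at 30.5 CPM, lay inside the WT range, so the groups overlapped on the moderate diet and did not on the enriched diet. The log2 fold change was 1.96 ± 0.29 on the enriched diet (SE, 95% interval 1.35 to 2.58, adjusted p = 0.000303) and 1.63 ± 0.29 on the moderate diet (1.02 to 2.23, adjusted p = 0.00250). It was 1.93 on the moderate diet without mutant 3 (adjusted p = 9.18e-08), and 1.28 without the 3 libraries whose sex label was contradicted, where the call was lost (adjusted p = 0.189). That last fit kept only moderate diet mutants 3 and 4 of their group, so mutant 3 weighed more in it.

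Sesn1 (chromosome 10, 41809935 to 41908424, plus strand) was flat, with all 16 libraries between 19.8 and 24.1 CPM. Its mean was 21.95 ± 1.67 CPM in enriched diet mutants, 21.5 ± 1.55 in enriched diet WT, 20.5 ± 0.864 in moderate diet mutants and 21.4 ± 1.07 in moderate diet WT (SD, n = 4 each). Its intervals were also narrow, with a log2 fold change between -0.11 and 0.22 on the enriched diet and between -0.22 and 0.10 on the moderate diet, at 95%. Sesn3 (chromosome 9, 14275067 to 14333101, plus strand) averaged 38.1 ± 5.09 CPM in enriched diet mutants, 40.5 ± 9.54 in enriched diet WT, 42.9 ± 1.97 in moderate diet mutants and 48.3 ± 2.63 in moderate diet WT. The Sesn3 groups overlapped on both diets, and the log2 fold changes, -0.10 (95% interval -0.39 to 0.18) and -0.17 (-0.45 to 0.11), did not pass (adjusted p = 0.584 and 0.475).

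Set per kilobase of exon, the sestrin RNA pool had a different make-up in the genotypes. Sesn2 made up 80.1 ± 3.12% of the summed CPM per kilobase of the 3 sestrins in enriched diet mutants and 51.5 ± 3.36% in enriched diet WT (SD, n = 4). It made up 73.4 ± 14.1% in moderate diet mutants and 50.1 ± 2.14% in moderate diet WT. The lowest moderate diet mutant, at 52.3%, was again replicate 3, within the WT range of 46.5 to 53.4% over both diets.

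Tsc1 and Tsc2, whose products form the complex that turns off Rheb, did not pass on either diet. Tsc1 (chromosome 2, 28641228 to 28691167, plus strand) averaged 79.9 ± 12.8 CPM in enriched diet mutants, 76.8 ± 11.7 in enriched diet WT, 71.6 ± 10.4 in moderate diet mutants and 78.9 ± 2.61 in moderate diet WT (SD, n = 4 each), with overlapping groups on both diets. Tsc2 (chromosome 17, 24595816 to 24632630, minus strand) held 100.2, 103, 104 and 132 CPM in enriched diet mutants, against 115, 123, 116 and 124 CPM in enriched diet WT. Mutants 1 to 3 lay below every WT library and mutant 4 above them all. In moderate diet mutants Tsc2 held 115, 119, 115 and 111 CPM, against 134, 125, 131 and 125 CPM in moderate diet WT, where the groups did not overlap. Its log2 fold changes were -0.11 (95% interval -0.28 to 0.05, adjusted p = 0.267) on the enriched diet and -0.17 (-0.33 to -0.01, adjusted p = 0.188) on the moderate diet. Without enriched diet mutant 4 the enriched diet value was -0.23 and passed (adjusted p = 0.0122). That library held the highest sum of yolk sac markers, described further on, and any link to Tsc2 was not tested. Tsc2 shares 693 exonic bases with Pkd1 on the opposite strand, and the library kit keeps no strand, so reads there cannot be told apart.

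Rptor, the substrate-presenting subunit on chromosome 11 (119602905 to 119899576, plus strand), was slightly lower in mutants. Enriched diet mutants held 105, 102, 107 and 107 CPM (105 ± 2.24, SD, n = 4), against 112, 129, 119 and 116 CPM in enriched diet WT (119 ± 7.32). Moderate diet mutants held 108, 105, 118 and 109.9 CPM (110.2 ± 5.40), against 128, 119.97, 127 and 125 CPM in moderate diet WT (125 ± 3.46). On each diet all 4 mutants lay below all 4 WT libraries, though across diets the highest mutant (118 CPM) exceeded the lowest WT library (112 CPM). The log2 fold change was -0.18 ± 0.06 on the enriched diet (SE, 95% interval -0.31 to -0.06, adjusted p = 0.0231) and -0.18 ± 0.06 on the moderate diet (-0.30 to -0.06, adjusted p = 0.0634). The enriched diet call was lost in 13 of 25 other fits, including those without enriched diet mutant 1, 2 or 3, enriched diet WT 2 or 3, moderate diet mutant 1 or moderate diet WT 1, 2 or 4 (adjusted p = 0.0508 to 0.200). The moderate diet value passed in 4 other fits, such as that without moderate diet mutant 3 (adjusted p = 0.0315). Another was that with sex read from counts (edgeR, adjusted p = 0.0456). Rptor shares 84 exonic bases with its antisense transcript Rptoros.

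Eif4ebp1, the translational repressor on chromosome 8 (27260329 to 27276674, plus strand), was higher in mutants on both diets. Enriched diet mutants held 186, 185, 159 and 141 CPM (168 ± 21.8, SD, n = 4), against 90.9, 73.2, 87.3 and 77.3 CPM in enriched diet WT (82.2 ± 8.27). Moderate diet mutants held 173, 187, 92.8 and 149 CPM (150.3 ± 41.4), against 74.2, 71.5, 71.5 and 73.8 CPM in moderate diet WT (72.7 ± 1.44). All 8 mutants lay above all 8 WT libraries, narrowly so for moderate diet mutant 3 at 92.8 CPM, beside the highest WT library at 90.9 CPM. The rise was 2.07-fold on the enriched diet (log2 fold change 1.05 ± 0.16 SE, 95% interval 0.71 to 1.39, adjusted p = 0.000381) and 2.06-fold on the moderate diet (1.04 ± 0.16, 0.71 to 1.38, adjusted p = 0.000800). Without the 3 libraries whose sex label was contradicted the moderate diet value was 0.73 and the call was lost (adjusted p = 0.107), as it was for Sesn2. That setting kept only moderate diet mutants 3 and 4 of their group. Under that setting Ddit4 kept its call on the moderate diet (2.79, adjusted p = 0.00893).

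Counting libraries rather than p-values, 5 of the 9 genes had groups that did not overlap on the enriched diet (Ddit4, Sesn2 and Eif4ebp1 higher, Ddit4l and Rptor lower), beside 23.7% of all genes tested. On the moderate diet 4 did (Ddit4 and Eif4ebp1 higher, Tsc2 and Rptor lower), beside 15.6%.

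**Figure D2:**
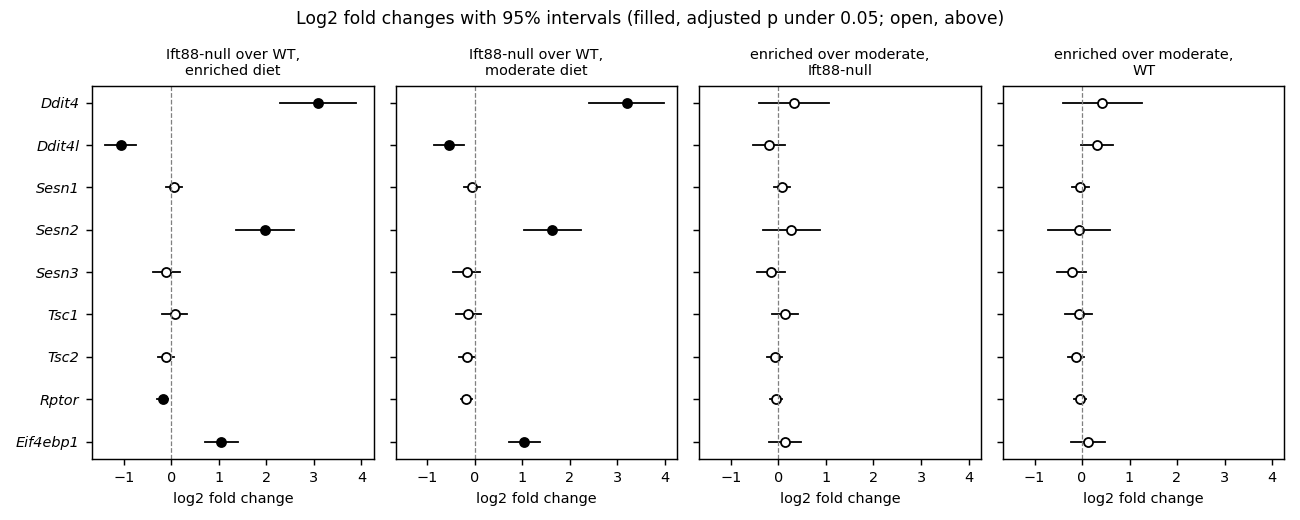
Log2 fold change of each gene (points) with its 95% interval (bars) in 4 panels, for Ift88-null over WT on the enriched diet, on the moderate diet, and for enriched over moderate in Ift88-null and in WT. Filled points have an adjusted p under 0.05, which holds for 5 genes on the enriched diet, 4 on the moderate diet and none between diets.

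The level order of the genes, compared per kilobase of exon, changed between genotypes. In enriched diet mutants Ddit4 (304 ± 82.7 CPM per kilobase, SD, n = 4) stood above Eif4ebp1 (76.3 ± 9.90) and Sesn2 (32.9 ± 5.78), none of them overlapping its neighbour, followed by Tsc2, Rptor, Tsc1, Sesn1, Sesn3 and Ddit4l (0.818 ± 0.158). Enriched diet WT had Ddit4 (38.3 ± 14.1) and Eif4ebp1 (37.4 ± 3.77) level within their spread, then Tsc2 (12.5 ± 0.487), and Rptor (8.83 ± 0.544) and Sesn2 (8.54 ± 0.502), which overlapped. Moderate diet mutants had the same order as enriched diet mutants, with Ddit4 at 228.5 ± 115 and Eif4ebp1 at 68.5 ± 18.9 overlapping through replicate 3. Moderate diet WT had Eif4ebp1 (33.1 ± 0.654) above Ddit4 (24.7 ± 3.97) without overlap. By mean, Sesn2 ranked 3 among the 9 in mutants and 5 in WT on both diets, but its libraries overlapped those of Tsc2 in moderate diet mutants, through replicate 3, and those of Rptor in WT on both diets.

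Moderate diet mutant 3 lay at different positions for the 3 genes that rose. On the log2 distance between the moderate diet WT mean, set at 0%, and the mean of the other 3 moderate diet mutants, set at 100%, this library lay at 42.5% for Ddit4, 29.0% for Eif4ebp1 and 1.72% for Sesn2. Among genes with lower values in mutants it lay at 43.7% for Ddit4l and 39.4% for Rptor. For Tsc2, which did not pass but whose moderate diet groups did not overlap, the library lay at 103%, the level of the other mutants. Its Ift88 level, 2.01 CPM, was the lowest of all 16 libraries. Genes chosen for likeness to Ddit4 and Sesn2 were picked by correlation over all 16 libraries, this one included, so their position in it is partly set by that choice and is given as a description only. Among those like Ddit4 it lay between WT and mutants, at 26.7% for Egln1, an oxygen-sensing hydroxylase, and 49.4% for Pgm2, an enzyme of sugar phosphate metabolism. For Egln3, Gys1, Loxl2 and Gpi1 it lay at 31.5%, 31.1%, 47.3% and 54.0%. Among those like Sesn2 it lay at WT for Chac1, a glutathione-degrading enzyme, with 0.917 CPM against 37.8 to 54.3 CPM in the other moderate diet mutants and 1.04 to 1.87 CPM in moderate diet WT. Slc1a4, a neutral amino acid transporter, was 62.5 CPM there, against 154 to 172 CPM in the other moderate diet mutants and 58.4 to 71.2 CPM in moderate diet WT. Ppp1r3c, a glycogen-targeting subunit of a phosphatase, lay at 22.1%. Atf4, looked up after its values had been seen, was 163 CPM, against 240 to 256 CPM in the other moderate diet mutants and 158 to 183 CPM in moderate diet WT. This is 1 library, so none of these positions was tested.

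**Figure D3:**
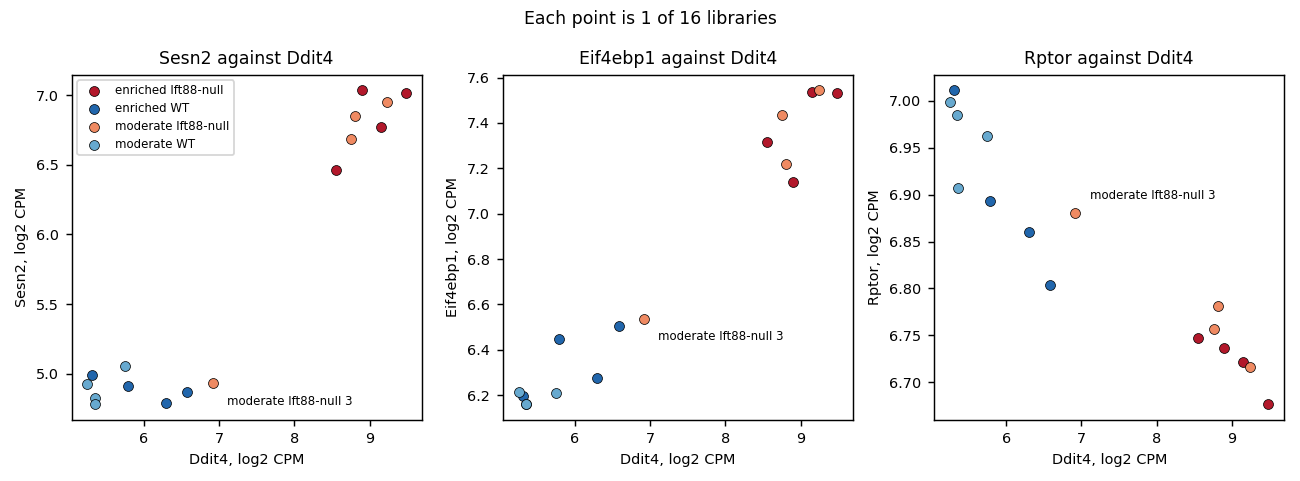
Log2 CPM of Sesn2, Eif4ebp1 and Rptor (vertical axes) against log2 CPM of Ddit4 (horizontal axes) in the 16 libraries, coloured by group. Moderate diet Ift88-null 3 lies between the genotypes on the Ddit4 axis but at the WT level on the Sesn2 axis, where it held 30.5 CPM.

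Likeness of pattern was measured as Pearson's r of log2 CPM over the 16 libraries, which fall into 2 clusters by genotype, so it mostly scores the genotype difference and is given as a description. The 6 genes most like Ddit4 were Egln1 (r = 0.993), Egln3 (0.991), Gys1 (0.991), Pgm2 (0.991), Gpi1 (0.990) and Loxl2 (0.990). Egln1 averaged 357 ± 53.6 CPM in enriched diet mutants, against 120.2 ± 19.4 CPM in enriched diet WT, and 296 ± 112 CPM in moderate diet mutants, against 101 ± 11.2 CPM in moderate diet WT (SD, n = 4 each). Egln1 and Egln3 are hydroxylases that mark hypoxia-inducible factors for destruction and are induced by them, Gys1 makes glycogen, Gpi1 is a glycolytic enzyme and Loxl2 modifies collagen. The 3 most like Sesn2 were Slc1a4 (r = 0.987), Chac1 (0.987) and Ppp1r3c (0.986), of which Chac1 and Slc1a4 are known ATF4 targets. Chac1 averaged 41.8 ± 8.39 CPM in enriched diet mutants, against 1.24 ± 0.504 CPM in enriched diet WT.

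Diet was set against the same genes within each genotype. In mutants, Ddit4 was 1.25-fold the moderate diet level on the enriched diet (log2 fold change 0.32, 95% interval -0.42 to 1.07, adjusted p = 0.726), and in WT 1.35-fold (0.43, -0.40 to 1.26, adjusted p = 0.967). For Sesn2 the values were 0.27 in mutants (-0.33 to 0.87) and -0.07 in WT (-0.71 to 0.58), and for Eif4ebp1 0.14 (-0.19 to 0.47) and 0.13 (-0.23 to 0.49). The Ddit4 intervals reach past 1 on the log2 scale in both genotypes. None of the 9 was called by diet in mutants, in WT or in the interaction, where 0% of genes were called in each by edgeR. At an unadjusted p under 0.05 the 3 contrasts held 0, 0 and 1 of the 9, beside 1565, 354 and 1401 of the 14514 genes tested (edgeR). DESeq2 called 3 genes by diet in mutants, 1 in WT and 0 in the interaction, none of them among the 9. The only pair of diet groups without overlap was Tsc2 in WT, at 115 to 124 CPM on the enriched diet and 125 to 134 CPM on the moderate diet (log2 fold change -0.13, adjusted p = 0.967), beside 2.52% of all genes without overlap in that contrast and 3.2% by diet in mutants. The interaction was -0.11 for Ddit4 (95% interval -1.16 to 0.95), 0.34 for Sesn2 (-0.51 to 1.18) and 0.01 for Eif4ebp1 (-0.47 to 0.49), so the rise on the 2 diets could not be told apart at this spread.

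The wider pathway was read from gene lists written from general knowledge, none of which holds any of the 9 genes. Earlier results of these data were known when the lists were chosen, so their counts are descriptions and not independent support. Paired values in these paragraphs are log2 fold changes of mutants over WT with their SE, on the enriched and then the moderate diet. Over all genes tested, 31.2% were called on the enriched diet (14.4% higher, 16.8% lower) and 7.62% on the moderate diet (4.79% and 2.83%). Each list count below is to be read beside these shares. In the mTORC1 complex and its substrates, 2 of 16 tested genes were called higher and 3 lower on the enriched diet, and 1 higher and 1 lower on the moderate diet. The list's median was -0.07 and -0.05, beside -0.01 over all genes on each diet. The enriched diet count of 5 called was 3 without enriched diet mutant 1 or WT 3 and 2 without enriched diet mutant 2. The moderate diet count of 2 was 1 without any of enriched diet mutants 2 and 3, enriched diet WT 3, moderate diet mutants 1, 2 and 4 and moderate diet WT 1, 3 and 4, and 0 without the 3 libraries whose sex label was contradicted. Eif4b, a translation initiation factor downstream of mTORC1, rose on both diets (0.56 ± 0.09 and 0.49 ± 0.09). Ulk1, the autophagy kinase that mTORC1 restrains, fell on both (-0.39 ± 0.12 and -0.40 ± 0.11). Akt1s1, which encodes the mTORC1 inhibitor PRAS40, fell on the enriched diet (-0.45 ± 0.09) and did not pass on the moderate diet (-0.10 ± 0.09). The same held for Eif4e, the cap-binding partner of Eif4ebp1 (-0.29 ± 0.08 and -0.07 ± 0.08). The other gene called higher on the enriched diet was Lpin1, a lipid phosphatase named after its value was seen. Mtor itself, looked up likewise, was 0.0025 on the enriched diet and -0.19 on the moderate diet, and passed on neither.

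Beside the 31.2% and 7.62% of all genes called on the enriched and moderate diets, the next 2 lists were as follows. Amino acid input through Rag GTPases, Ragulator, GATOR and their sensors showed 8 higher and 3 lower of 26 tested genes on the enriched diet, and 2 higher and none lower on the moderate diet. The moderate diet count was 6 higher without moderate diet mutant 3, 3 higher and 1 lower without enriched diet mutant 4, and 0 without moderate diet mutant 1, 2 or 4, without any 1 of the moderate diet WT libraries, or without the 3 contradicted libraries. Fnip1, a partner of folliculin, rose on both (0.79 ± 0.13 and 0.49 ± 0.13), as did Seh1l, a GATOR2 subunit (0.32 ± 0.08 and 0.30 ± 0.08). Lars, the leucyl-tRNA synthetase, passed on the enriched diet only (0.53 ± 0.07 and 0.23 ± 0.07), and so did Fnip2 (0.42 ± 0.08 and 0.22 ± 0.07). Of 22 genes of the TSC, Rheb and insulin or PI3K list, 7 were higher and 3 lower on the enriched diet, and none was higher and 1 lower on the moderate diet. That moderate diet count was 1 higher and 2 lower without moderate diet mutant 3, and 0 without moderate diet mutant 1, 2 or 4, moderate diet WT 1, 2 or 3, or the 3 contradicted libraries. Insr, the insulin receptor, rose on the enriched diet (0.58 ± 0.12) and did not pass on the moderate diet (0.15 ± 0.12). Igf1r, the IGF1 receptor, did likewise (0.54 ± 0.13 and 0.24 ± 0.13). Pik3r1, the PI3K regulatory subunit, fell on both diets (-0.43 ± 0.11 and -0.41 ± 0.11).

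The list of AMPK, the energy-sensing kinase, had 2 higher and 4 lower of 11 on the enriched diet and 1 each way on the moderate diet. The moderate diet pair was 0 without moderate diet mutant 1 or 4, moderate diet WT 1, 2 or 3, or the 3 contradicted libraries, and 1 lower only without moderate diet mutant 2 or WT 4. Its beta subunit gene Prkab2 rose on both diets (0.80 ± 0.15 and 0.54 ± 0.14) and its gamma subunit gene Prkag2 fell on both (-0.44 ± 0.07 and -0.27 ± 0.07). Prkag1 passed on the enriched diet only (-0.46 ± 0.09 and -0.11 ± 0.08). In mTORC2, 1 of 7 was higher on each diet and 1 lower on the enriched diet, the lower one not called without enriched diet mutant 1 or 2 or WT 3. The higher gene was Ndrg1, whose product is a substrate of SGK1 and which sits on the hypoxia list too (2.93 ± 0.38 and 2.76 ± 0.38). The lower gene was Mapkap1, an mTORC2 subunit (-0.22 ± 0.06 and -0.14 ± 0.06). Apart from Ndrg1, the genes named from these 5 lists changed by less than 1 on the log2 scale, less than Ddit4, Sesn2 and Eif4ebp1 did.

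Lists for the factors named above as inducers of Ddit4, Sesn1, Sesn2, Sesn3 or Eif4ebp1 are given next. Hypoxia-induced genes were called higher in 24 and lower in 1 of 25 on the enriched diet, and higher in 23 and lower in 1 on the moderate diet, with a median of 1.57 and 1.55. Adm, the peptide adrenomedullin, rose by 5.37 ± 0.50 and 5.37 ± 0.53, and Stc1, a glycoprotein hormone, by 3.19 ± 0.36 and 2.95 ± 0.36. The protein-folding oxidase gene Ero1l rose by 2.25 ± 0.24 and 1.91 ± 0.24, and the collagen hydroxylase gene P4ha2 by 1.57 ± 0.21 and 1.95 ± 0.21. Pdk1, a kinase that keeps pyruvate out of mitochondrial oxidation, rose by 1.33 ± 0.20 and 1.74 ± 0.20.

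ATF4 and integrated stress response genes were called higher in 16 and lower in 1 of 22 on the enriched diet, and higher in 10 and lower in 1 on the moderate diet, with a median of 0.95 and 0.61. Chac1 rose on both (5.18 ± 0.76 and 4.64 ± 0.75), as did Stc2, a glycoprotein (3.08 ± 0.35 and 2.96 ± 0.35), and the lipoprotein receptor gene Vldlr (2.96 ± 0.37 and 2.56 ± 0.37). Asns, asparagine synthetase, rose by 1.65 ± 0.20 and 1.08 ± 0.19. Without moderate diet mutant 3 the moderate diet count was 13 higher of 22 for this list and 23 of 25 for the hypoxia list. For this list it was 6 without moderate diet mutant 1, 2 or 4 or WT 3 and 7 without WT 2, whereas the hypoxia list held 22 to 23 higher whichever 1 library was left out. Without the 3 libraries whose sex label was contradicted the counts were 2 and 14.

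The lists of other known inducers held fewer tested genes, so their counts are not ranked against those above. Of all genes tested, 14.4% were called higher and 16.8% lower on the enriched diet, and 4.79% and 2.83% on the moderate diet. Of 20 p53-induced genes 4 were higher and 4 lower on the enriched diet, and none was higher and 2 were lower on the moderate diet. The enriched diet count was 3 higher and 2 lower without enriched diet mutant 2. The moderate diet count was 2 higher and 4 lower without moderate diet mutant 3 and 2 higher and 2 lower without enriched diet mutant 2. It was 1 lower without enriched diet WT 1 or 2 or moderate diet WT 2 or 4, and 0 without moderate diet mutant 1, 2 or 4, moderate diet WT 1 or 3, or the 3 contradicted libraries. Aen, a p53-induced nuclease, fell on both (-0.62 ± 0.12 and -0.40 ± 0.12), and so did Gtse1 (-0.25 ± 0.09 and -0.37 ± 0.09). Cdkn1a, the cell cycle inhibitor p21, passed on the enriched diet only (0.93 ± 0.20 and 0.58 ± 0.20), as did the polymerase gene Polk (0.78 ± 0.18 and 0.45 ± 0.18). Of 15 FOXO genes 7 were higher and 1 lower on the enriched diet, and 2 higher and 1 lower on the moderate diet, a count that was 3 higher and 2 lower without moderate diet mutant 3 and 0 without the 3 contradicted libraries. Foxo3 rose on both (1.28 ± 0.19 and 0.98 ± 0.18), as did the cyclin G gene Ccng2 (1.62 ± 0.23 and 1.34 ± 0.23). Cdkn1b, the cell cycle inhibitor p27, passed on the enriched diet only (0.59 ± 0.12 and 0.27 ± 0.11), and Txnip, a thioredoxin inhibitor, on the moderate diet only (-0.89 ± 0.44 and -2.18 ± 0.46). None of these differences between diets passed a test of its own in the interaction, where no gene was called.

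Of 10 genes of the glucocorticoid receptor list 5 were higher on the enriched diet and 3 on the moderate diet, and none was lower. The moderate diet count was 5 without moderate diet mutant 3, 1 without moderate diet mutant 1 or 2 or moderate diet WT 1, 2 or 3, and 0 without the 3 contradicted libraries. The receptor gene Nr3c1 rose on both (1.22 ± 0.20 and 0.68 ± 0.19), as did the metallothionein genes Mt1 (1.62 ± 0.23 and 1.61 ± 0.22) and Mt2 (1.04 ± 0.22 and 0.84 ± 0.21). The clock gene Per1 passed on the enriched diet only (0.74 ± 0.10 and 0.34 ± 0.10). No gene of the 10 lists was called by diet in either genotype.

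**Figure D4:**
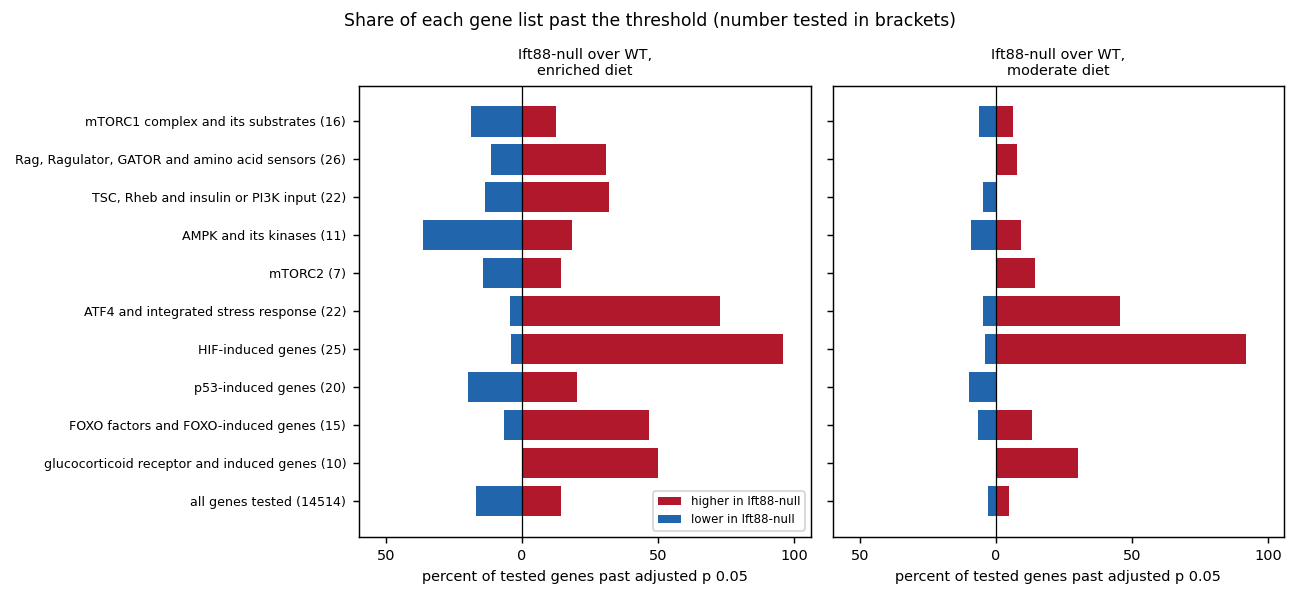
Percent of the tested genes of each list called at an adjusted p under 0.05 for Ift88-null over WT, on the enriched diet (left) and the moderate diet (right), with higher genes to the right of 0 and lower genes to the left. Hypoxia-induced genes were called higher in 24 of 25 and 23 of 25, beside 14.4% and 4.79% of all genes, and the mTORC1 complex list in 2 of 16 and 1 of 16.

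Markers of other cells were read beside these values. No erythroid marker was called on the moderate diet and 1 of 6 was lower on the enriched diet, with median log2 fold changes of -0.93 and -0.51. Endothelial markers summed to 329 to 348 CPM in enriched diet mutants, 295 to 358 in enriched diet WT, 337 to 398 in moderate diet mutants and 291 to 348 in moderate diet WT, with 2 of 6 called higher on each diet and 2 lower on the enriched diet. Head mesoderm and arch markers were called lower in 3 of 4 on the enriched diet and 2 of 4 on the moderate diet, with sums of 92.4 to 115 CPM in enriched diet mutants, 111 to 124 in enriched diet WT, 100.4 to 112 in moderate diet mutants and 109.5 to 124 in moderate diet WT. Neural crest markers had 1 of 5 called higher on the enriched diet and none on the moderate diet, and neural plate markers 2 higher and 1 lower of 7 on the enriched diet and none on the moderate diet. Hoxb1 was at the floor throughout and not tested, at 0.641 CPM or less in every library. It was 0 in every enriched diet mutant and in some libraries of each other group. Yolk sac markers reached 109 CPM in enriched diet mutant 4 and at most 30.7 CPM in every other group, with none of 5 called. Their median log2 fold change was 0.96 on the enriched diet and 2.09 on the moderate diet. Moderate diet mutants summed to 4.65 to 30.7 CPM and moderate diet WT to 8.84 to 20.7 CPM. Decidual and trophoblast markers had 1 of 3 tested called higher on the enriched diet, with Tpbpa at 0 in 3 of the 4 groups, and none of 3 cardiac markers tested was called. Their part in the member results was not tested. Leaving out enriched diet mutant 3, which held the Prl8a2, together with moderate diet mutant 3 left Ddit4, Sesn2 and Eif4ebp1 called on both diets, at log2 fold changes of 3.18, 2.08 and 1.08 on the enriched diet and 3.51, 1.94 and 1.23 on the moderate diet.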

How the data were processed

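The deposited values are raw counts per gene symbol in 16 libraries, which the authors made by alignment to mm10 with TopHat2 2.1.1 and counting with HTSeq 0.9.1, per the submitters' processing notes. The sources used here name no counting mode, strand setting or annotation. The 5 summary lines of each file held 13.7 to 17.0% of reads as no feature and 1.20 to 1.39% as ambiguous, and stayed out of all totals.

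A gene was kept where 4 or more libraries held 10 or more counts (14514 of 24421, 59.4%). Library totals were scaled by edgeR's TMM factors and genes tested with edgeR 4.0.16 in R 4.3.3, in 1 quasi-likelihood fit over 16 libraries with a coefficient per group and the labelled sex as covariate. P-values were adjusted after Benjamini and Hochberg across every gene tested, with a threshold of 0.05. CPM are counts rescaled to a common total with those factors, log2 CPM has a prior count of 2, and levels per kilobase use the union of GENCODE vM21 exons.

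The members and gene lists were chosen with earlier results of these data known. Of each list, up to 3 called genes with the smallest p per diet are named (1 within this rule is not reported here), and of genes most like Ddit4 and Sesn2 the first 6 and 3. Replicate numbers are not stated to pair embryos, and the block is an alternative only. Other alternatives were median-of-ratios scaling, DESeq2 1.42.0, no filter, no sex covariate, sex read from counts, only the groups compared and leaving out each library. Leaving out 3 libraries with contradicted sex labels, and both outlying replicate 3 mutants, was chosen after seeing the data. Of the moderate diet libraries, the former kept only mutants 3 and 4 and WT 1, 3 and 4, so outlying mutant 3 weighed more. The smallest chi-square per degree of freedom between libraries of a group was 6.84, so none was counted as a duplicate.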

Additional observations from a re-analysis of the deposited data

Results flagged for a closer look

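In 3 of the 36 groups of 4 libraries formed by the 9 genes, 1 library lay far from the other 3 by Dixon's criterion, which chance alone meets in about 1 of 20 groups. Ddit4l was 3.08 CPM in enriched diet mutant 3, the library with the decidual marker, and 2.13 to 2.21 CPM in the other enriched diet mutants. Ddit4l was 3.36 CPM in moderate diet WT 3 and 4.40 to 4.56 CPM in the other moderate diet WT libraries. Tsc2 was 132 CPM in enriched diet mutant 4 and 100.2 to 104 CPM in the other enriched diet mutants. Enriched diet mutant 4 was the library with the highest yolk sac markers, among them Afp at 57.7 CPM.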

How the results depend on the processing

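On the enriched diet Ddit4, Ddit4l, Sesn2 and Eif4ebp1 kept their direction and their call in every alternative run. On the moderate diet Ddit4 did so too, at log2 fold changes of 2.79 to 3.51. The count of genes called on the moderate diet, 1106, was 719 with only the 2 groups compared, 538 to 2107 on leaving out 1 library (highest without moderate diet mutant 3), 105 without the 3 libraries with contradicted sex labels and 2155 without both replicate 3 mutants. Of the 9 genes, 4 were called there, 3 to 5 on leaving out 1 library and 1 without the 3 contradicted libraries. The fit without the contradicted libraries kept only moderate diet mutants 3 and 4 of their group. Enriched diet calls of the 9 ran from 4 to 6 and of all genes from 3023 to 4872 on leaving out 1 library. Diet calls in mutants were 3 with DESeq2 and 0 to 1 on leaving out 1 library, and in WT 1 with DESeq2.

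The replicate block changed no call among the 9 genes. Same-numbered libraries correlated at -0.370 to 0.403 (median 0.029 over 24 pairs, 9 of them above 0.1). These values do not settle whether the numbers pair the samples. With the replicate block the Ddit4 interaction turned to 0.0240.

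Signs turned only in values that never passed the test. The Ddit4 interaction was 0.33 without the contradicted libraries and -0.42 to 0.28 on leaving out 1 library. Without the contradicted libraries Tsc1 was 0.0103 on the moderate diet and -0.0240 by diet in mutants. By diet in WT, Sesn1 was 0.0081 without the sex covariate, and Sesn2 was 0.0593 with only the 2 groups and 0.0199 without both replicate 3 mutants. The Rptor interaction was 0.0126 with median-of-ratios scaling, 0.0116 with DESeq2, 0.0044 without a filter, 0.0053 without the sex covariate, 0.0070 with sex read from counts and 0.0462 without both replicate 3 mutants. The Eif4ebp1 interaction was -0.0181 without the sex covariate, -0.0060 with sex read from counts and -0.145 without both replicate 3 mutants. On leaving out 1 library, the ranges were -0.196 to 0.0324 for Sesn3 and -0.0379 to 0.216 for Tsc1 on the enriched diet, -0.0059 to 0.28 for Eif4ebp1 by diet in mutants, and, in the interaction, -0.0327 to 0.201 for Sesn3, -0.0602 to 0.129 for Tsc2, -0.0222 to 0.0687 for Rptor and -0.165 to 0.179 for Eif4ebp1. The cause was not tested in any of these.

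Ddit4l had the fewest counts of the 9 genes, 51 to 177 per library.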
